A study of Mus musculus with 12 samples.

Results

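Gene expression of bone marrow plasma cells was compared between 2 times after tamoxifen, 270 days and 60 days, a difference of 210 days. All 12 libraries of the series entered the comparison, 6 of each day, and they were chosen by their labelled day alone. At each day 3 specimens (numbered animals in the labels) gave 2 libraries each, 1 of human CD4+ and 1 of human CD4- plasma cells. The mice were BLTcre.mcl1fl/+ reporter mice of strain C57BL/6, and every one of them, at both days, carried the same Cre, 1 floxed allele of Mcl1 and the reporter, and was given tamoxifen, which triggers expression of a human CD4 gene as the reporter. None of the 4 groups was free of tamoxifen or of the floxed allele. Neither the animals' age, nor the promoter of the Cre, the gates of the sort or any pooling is stated in the labels. Without the age at tamoxifen, time since tamoxifen and age cannot be told apart. For each gene log2(CPM + 0.5) of the CD4+ and the CD4- library of a specimen was averaged, where CPM is a gene's reads scaled to a common library total. A specimen's level below is that average turned back into CPM. It gave 6 values for each of 12704 genes that passed a filter on low reads, out of 14219 in the table.

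Plasma cells are the antibody-secreting end stage of the B cell lineage. Blimp-1 (Prdm1) and Irf4 hold the programme in place, Xbp1 expands the secretory apparatus, and syndecan-1 (Sdc1) and BCMA (Tnfrsf17) mark the surface. In bone marrow some plasma cells persist for long periods in niches with stromal and myeloid cells, and their survival depends on Mcl1, an anti-apoptotic member of the Bcl2 family. The averaged comparison asks which RNAs of the sorted pool differ with time, whatever the reporter status of the cells.

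The libraries held 7449468 to 15943546 reads over the genes of the table. The labels call the cells plasma cells, and markers of that type were abundant. Jchain, the joining chain of secreted antibody, had 79037 to 312679 CPM in the libraries, and Sdc1 lay between 1748 and 2342 CPM. At least 1 read was found for 11022 and 11301 genes in CD4+ libraries 2 and 3 of day 270, against 12580 to 13506 in the other 10 libraries. Ribosomal RNA-like features took 30.0% of the reads in CD4+ library 2 of day 270, 11.99% in CD4+ library 2 of day 60 and at most 3.18% in any other. In a principal component analysis of the 6 specimens, components 1 and 2 held 31.2% and 29.0% of the variance and set specimens 2 and 3 of day 270 apart from the other 4 and from each other. The day, 1 of 5 degrees of freedom among the 6 specimens, accounted for 24.8% of the sum of squares, less than component 1 or component 2 alone. In each group library 1 carries a library number from 5 to 8 and libraries 2 and 3 carry numbers from 13 to 27, and both sets hold all 4 groups.

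Few RNAs passed the test between the days, and nearly all of those that did were higher at day 270. Axl, a receptor tyrosine kinase that takes part in the uptake of dying cells, the surface adhesion molecule Epcam, the fatty acid desaturases Scd1 and Scd2, the metallothioneins Mt1 and Mt2, haem oxygenase Hmox1 and the anti-apoptotic Bcl2l1 rose, and the Hsp70 gene Hspa1b and the death receptor gene Fas fell. limma called 37 of 12704 genes (0.291%) at a Benjamini-Hochberg adjusted p under 0.05, 35 higher (0.276%) and 2 lower (0.0157%) at day 270. Below, a called gene is one that passed this limma test, and other tools are named where used. For the gene lists below, the shares over all tested genes were 0.276% called higher, 0.0157% called lower and 59.0% with a positive log2 difference. The lists were chosen with earlier results of these data known, so counts set beside these shares describe the lists and test nothing. The log2 differences ran from 0.67 to 3.07 among the rises, and 26 rose by at least 1 on the log2 scale. Before adjustment 1025 genes (8.07%) had p under 0.05, 791 higher (6.23%) and 234 lower (1.84%). In all 37 the 3 specimens of a day did not overlap those of the other day, which held for 1244 genes higher (9.79%) and 434 genes lower (3.42%) among all tested. In 13 of the 35 rises every day 270 library lay above every day 60 library, as in 65 of all genes tested (0.512%). All 37 kept their direction in CD4+ cells, in CD4- cells, between the specimens numbered 1, which share a library-number set, and in 28 other settings. The populations and the specimens numbered 1 are parts of the average on which the genes were called. The 28 settings reuse these specimens, and several leave the log2 difference unchanged, so their agreement in direction was largely fixed in advance. Of the 35 rises, 22 were lower in specimen 1 than in specimens 2 and 3 of day 270. The share of all tested genes with that order was not computed, so the 22 cannot be called unusual.

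The call itself moved with the setting. With TMM scaling, which moved the median log2 difference of all genes from 0.07 to -0.04, 14 genes were called (12 higher, 0.0945%, and 2 lower, 0.0157%), all among the 37. DESeq2 on the summed reads of each specimen called 148 (118 higher, 0.929%, and 30 lower, 0.236%), 33 of the 37 among them, and edgeR on the same reads called 26 (25 higher, 1 lower), 21 of the 37 among them. The count was 0 without specimen 2 of day 60, 4 without specimen 3 of day 60, 4 and 18 without specimens 2 and 3 of day 270, and 3 and 58 without CD4+ library 2 of day 60 and of day 270. It was 0 when the prior variance had no trend over expression. With only specimens 2 and 3 of each day, which carry the later library numbers, 49 were called (43 higher, 0.338%, and 6 lower, 0.0472%), 27 of the 37 among them.

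**Figure D1:**
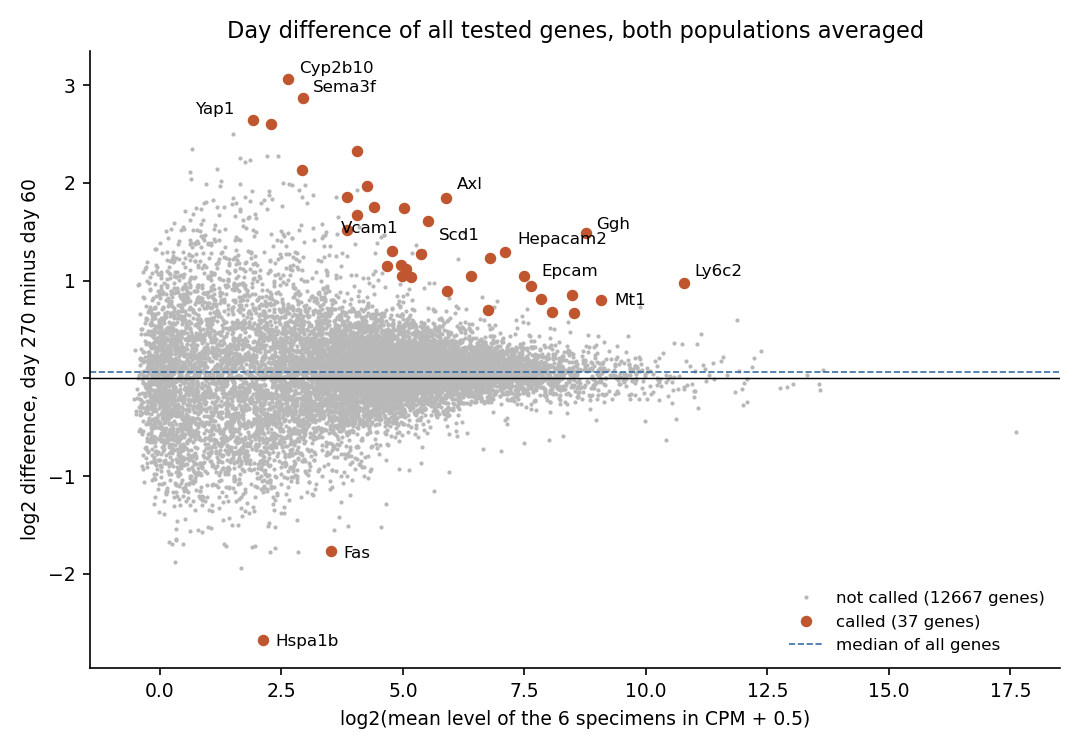
Log2 difference between day 270 and day 60 (vertical axis) against the mean level of the 6 specimens as log2(CPM + 0.5) (horizontal axis), 1 point a gene; large points are the 37 genes called by limma and the dashed line is the median of all genes, 0.07. The called rises span the range of levels, from Yap1 to Ly6c2, and the 2 falls, Fas and Hspa1b, lie among the lower levels.

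Among genes of plasma cell identity, limma called none of the core programme. Mcl1, of which every animal carried 1 floxed allele (ENSMUSG00000038612, chr3:95658788-95663176), was at 429, 435 and 523 CPM in the day 60 specimens and 469, 476 and 531 in the day 270 specimens (log2 difference 0.09 ± 0.13, adjusted p 0.906), and with TMM scaling the log2 difference was -0.02. The specimens of the days overlapped. In its single libraries Mcl1 ranged from 342 to 589.6 CPM, and a level per gene cannot show whether part of an allele was deleted. Log2 differences were 0.32 for Prdm1, 0.27 for Irf4, 0.28 for Xbp1, 0.07 for Sdc1, 0.05 for Tnfrsf17, 0.17 for Cd93, a receptor of bone marrow plasma cells, and -0.26 for Cxcr4, the receptor for Cxcl12. None passed the test (adjusted p 0.515 to 0.964), and under TMM scaling the values of Sdc1 and Tnfrsf17 turned to -0.04 and -0.07. Prdm1 levels were 167, 165 and 194 CPM in the day 60 specimens and 209.8, 229 and 219 in the day 270 specimens, without overlap. Jchain was at 234788 ± 26708 CPM at day 60 and 164485 ± 44645 at day 270 (log2 difference -0.55 ± 0.64, adjusted p 0.889). Its specimens did not overlap, and DESeq2 called it lower (adjusted p 0.00519) while edgeR did not (adjusted p 0.101). The proliferation gene Mki67 had 27.6 ± 11.3 and 28.5 ± 10.6 CPM.

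Of 25 tested genes on the plasma cell list, 2 rose and 0 fell, against 0.276% and 0.0157% of all genes. Epcam (ENSMUSG00000045394, chr17:87635979-87651129), a homotypic adhesion molecule, was at 138, 112 and 158 CPM in the day 60 specimens and 248, 288 and 244 in the day 270 specimens. Each day 270 specimen was above each day 60 specimen, and so was each of the 6 libraries (log2 difference 0.94 ± 0.14, adjusted p 0.00554). Ly6c2 (ENSMUSG00000022584, chr15:75108158-75111970), which encodes the surface antigen Ly6C, was at 1463, 1015 and 1033 CPM in the day 60 specimens and 1531, 2960.5 and 2599 in the day 270 specimens, and specimen 1 of day 270 lay just above specimen 1 of day 60 (log2 difference 0.98 ± 0.20, adjusted p 0.0448). Ly6c2 was not called by DESeq2 or with TMM scaling (adjusted p 0.302 and 0.169), and its near-identical neighbour Ly6c1, at 0.445 ± 0.347 and 1.93 ± 0.627 CPM, may share reads with it. Ly6C is also abundant on monocytes and neutrophils, whose marker sums stand with the macrophage genes; their part in the value of Ly6c2 was not tested. It was the 1 called gene of 8 Ly6 genes tested, of which 7 were positive with a median of 0.69, against 0.07 over all genes. Ly6d was at 969, 649 and 533 CPM in the day 60 specimens and 1071, 1106 and 1299.7 in the day 270 specimens (adjusted p 0.101), and Ly6a, which encodes Sca-1, had 1868 ± 145 and 2391 ± 344 CPM (adjusted p 0.573). The tight junction gene Cldn7, whose product binds Epcam, was at 39.8, 27.7 and 30.7 CPM in the day 60 specimens and 45.7, 68.7 and 84.1 in the day 270 specimens and did not pass limma's test (adjusted p 0.0736), whereas DESeq2 called it (adjusted p 0.0299). Cd38, an ectoenzyme that hydrolyses NAD, was at 81.1, 47.5 and 70.2 CPM in the day 60 specimens and 53.97, 16.1 and 27.3 in the day 270 specimens (adjusted p 0.158, and 0.00509 by DESeq2), with specimen 1 of day 270 inside the day 60 range. The genes of the plasma cell list without Jchain, which was left out after its level was seen, summed to 24004 to 27175 CPM in CD4- and 22204 to 25979.9 in CD4+ libraries of day 60, and to 28195 to 29981 and 24816 to 29436 at day 270. Ly6d and Cldn7 are named after their values were seen.

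Further surface receptors and adhesion genes were among the strongest calls. Hepacam2, an immunoglobulin superfamily gene, had the same adjusted p as Axl and was called in 26 of 28 other settings, the most of the 37. Its levels were 92.8, 69.7 and 72.3 CPM in the day 60 specimens and 153, 236 and 193 in the day 270 specimens (log2 difference 1.29 ± 0.17, adjusted p 0.00162). Slamf9, a receptor of the SLAM family, was at 141, 104 and 107 CPM in the day 60 specimens and 211, 255 and 263 in the day 270 specimens (log2 difference 1.05 ± 0.15, adjusted p 0.00402). For Hepacam2 the lowest day 270 library had 140.4 CPM and the highest day 60 library 101, while for Slamf9 the CD4- libraries of day 270 overlapped the CD4+ libraries of day 60. The chemokine receptor gene Ccr9, whose ligand is made in the small intestine, was at 14.96, 3.36 and 6.16 CPM in the day 60 specimens and 22.8, 26.7 and 37.4 in the day 270 specimens (log2 difference 1.97 ± 0.39, adjusted p 0.0336). Plasmacytoid dendritic cells express it too. The dendritic cell markers, Ccr9 among them, summed to 379 to 444 and 302 to 432 CPM in CD4- and CD4+ libraries of day 60. At day 270 the sums were 448 to 523 and 335 to 470.2. The part of such cells in the rise of Ccr9 was not tested. For Ccr9 specimen 1 was the highest of day 60. The gene was not called by DESeq2 or edgeR (adjusted p 0.458 and 0.245), nor by limma with TMM scaling (adjusted p 0.0863). The adhesion and migration list had 3 of 27 tested members called, Epcam, Ccr9 and Vcam1, all higher (against 0.276% of all genes). Of the list 15 were positive, against 59.0% of all genes, with a median of 0.05 (-0.06 with TMM scaling). Its integrin chain Itgb7 had 143 ± 34.5 and 232 ± 36.1 CPM (adjusted p 0.0842, and 0.0368 by DESeq2), and the chemokine receptor gene Cxcr3 had 11.8 ± 0.733 and 5.39 ± 2.06 CPM (adjusted p 0.364). The heparan sulfate proteoglycan gene Sdc3 and the plexin gene Plxnb2 rose by 1.05 and 1.04 on the log2 scale. With TMM scaling Sdc3 remained called and Plxnb2 was not (limma adjusted p 0.0407 and 0.0625). Hepacam2, Slamf9, Sdc3 and Plxnb2 are named after their values were seen.

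**Figure D2:**
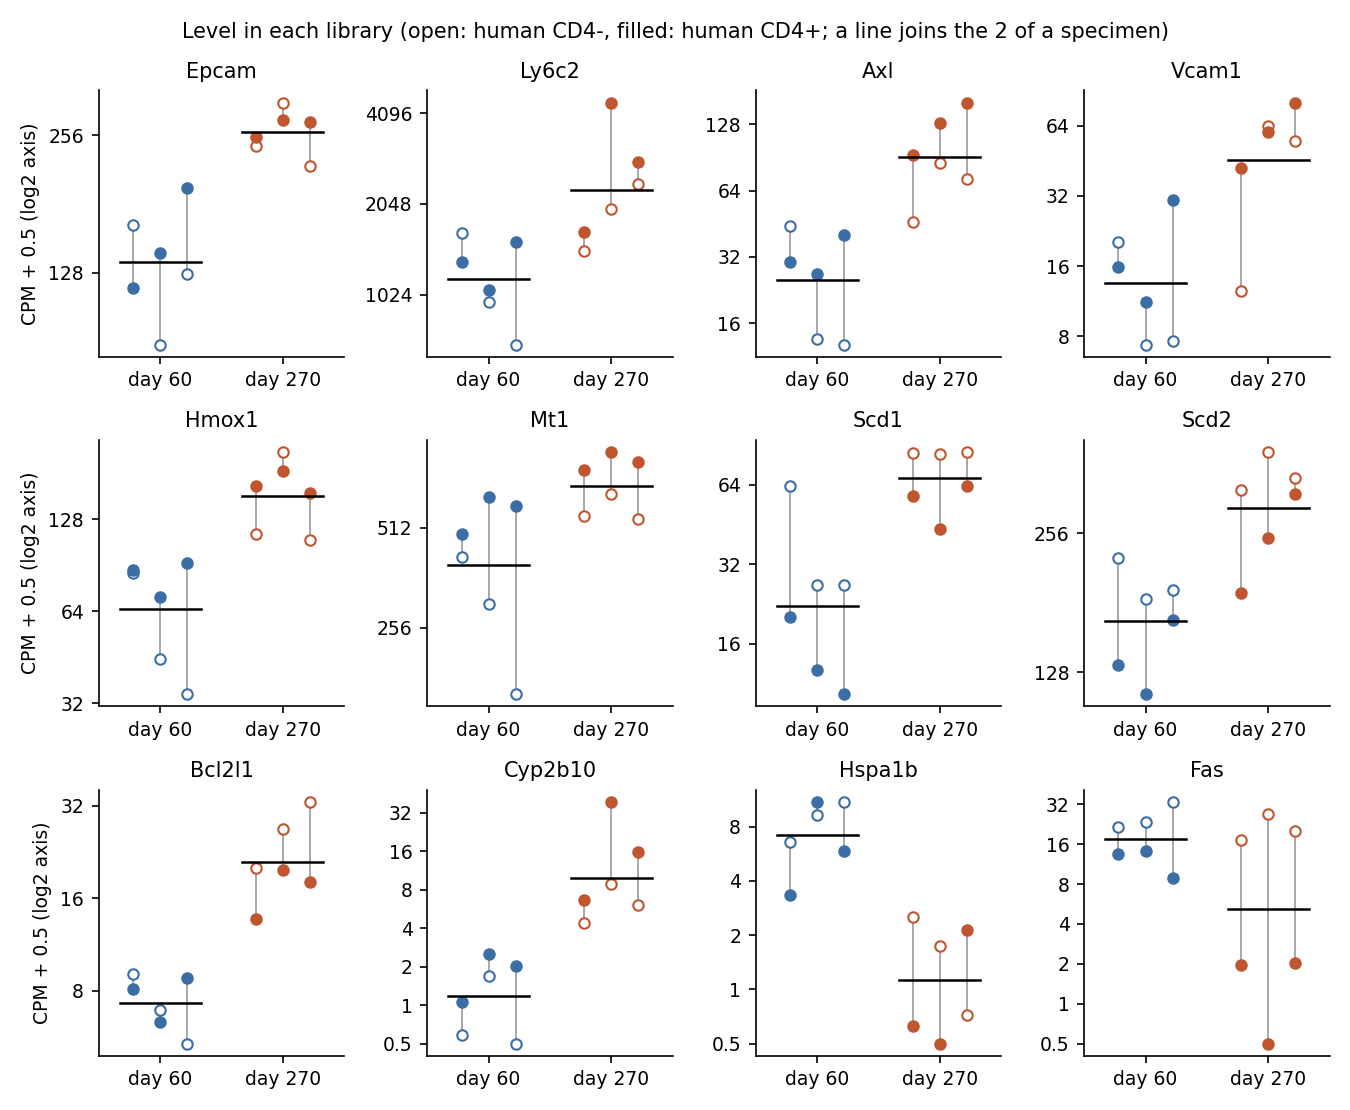
CPM + 0.5 (log2 axis) of 12 genes in each of the 12 libraries, open points for human CD4- and filled points for human CD4+, with a grey line between the 2 libraries of a specimen and a black bar at the geometric mean of the 3 specimens of a day. In Epcam and Bcl2l1 every day 270 library lies above every day 60 library, while for Fas the CD4- libraries of the days overlap and the CD4+ libraries do not.

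Several rises were genes that macrophages also express. Axl (ENSMUSG00000002602, chr7:25757273-25788705) was at 36.1, 18.6 and 22.2 CPM in the day 60 specimens and 64.98, 105 and 107 in the day 270 specimens, with the highest day 60 specimen well below the lowest day 270 specimen (log2 difference 1.85 ± 0.24, adjusted p 0.00162). Vcam1 (ENSMUSG00000027962, chr3:116109949-116129688), an adhesion molecule for integrin alpha 4 beta 1 made by stromal cells and by macrophages of the marrow, was at 17.4, 8.59 and 14.8 CPM in the day 60 specimens and 22.5, 61.5 and 65.9 in the day 270 specimens (log2 difference 1.75 ± 0.34, adjusted p 0.0292). In CD4- library 1 of day 270 it had 12.1 CPM, inside the day 60 range, and with TMM scaling it was not called (limma adjusted p 0.0863). Hmox1 (ENSMUSG00000005413, chr8:75093621-75100589), the inducible enzyme that breaks down haem, was at 85.7, 55.9 and 55.7 CPM in the day 60 specimens and 137, 198 and 130.3 in the day 270 specimens (log2 difference 1.23 ± 0.19, adjusted p 0.00554). Specimens 2 and 3 of day 270 were the highest for Axl and Vcam1, and specimen 2 was for Hmox1.

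Markers of other cells had positive log2 differences as well. Of 16 tested monocyte and macrophage markers 14 were positive, with a median log2 difference of 1.14 (1.05 with TMM scaling) against 0.07 over all genes (-0.04 with TMM scaling). An unadjusted limma p under 0.05 was found for 12 of the 16, all higher, against 6.23% of all genes in this direction. The 2 called were Vcam1 and Hmox1. Csf1r, the receptor for the macrophage growth factor, was at 5.62, 2.35 and 2.07 CPM in the day 60 specimens and 7.66, 18.1 and 14.1 in the day 270 specimens and was not called (adjusted p 0.0984), and the complement gene C1qa was at 22.5, 5.97 and 10.4 CPM in the day 60 specimens and 18.2, 34.02 and 53.1 in the day 270 specimens (adjusted p 0.171). The 17 macrophage markers in the table, Vcam1 and Hmox1 among them, summed to 142 to 413 CPM in CD4- libraries of day 60. The sums were 236 to 369 in CD4+ libraries of day 60, and 286 to 584 and 440.4 to 875 at day 270. The days overlapped in CD4- libraries. Hmox1 alone had 33.8 to 91.7 CPM in libraries of day 60 and 109 to 212 in those of day 270. Hence the sums and the median are not independent of the rises of Vcam1 and Hmox1. Lyz1 was not in the table, and 0 of the 17 were without a read. Neutrophil markers without Ly6c2 (left out after its level was seen) summed to 25.4 to 319.6 and 1.94 to 880.3 CPM in CD4- and CD4+ libraries of day 60 and to 47.2 to 259 and 95.8 to 604 at day 270, so the days overlapped. Erythroid markers, most of them globin reads, summed to 105 to 130.0 and 166 to 397 CPM at day 60. At day 270 they summed to 105 to 247 and 251 to 845, so the days overlapped. Gata1, Klf1, Ahsp and Car1 were not in the table. Positive values were found in 17 of 18 neutrophil (Ly6c2 among them), 8 of 10 erythroid, 6 of 6 megakaryocyte and 8 of 9 T and NK cell markers. Their medians were 0.90, 0.85, 0.80 and 0.48. Of 7 dendritic cell markers 6 were positive (median 0.13), and of 3 stromal and endothelial markers 1 (median -0.26). B cell markers summed to 2642 to 2875 and 1752 to 1973 CPM, then 2819 to 2979 and 1493 to 2048. The part of these other cells in the rises of Axl, Vcam1, Hmox1 and the lysosomal genes was not tested. In such sorted pools a change in the number of cells of a type and a change in RNA per cell cannot be told apart.

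**Figure D3:**
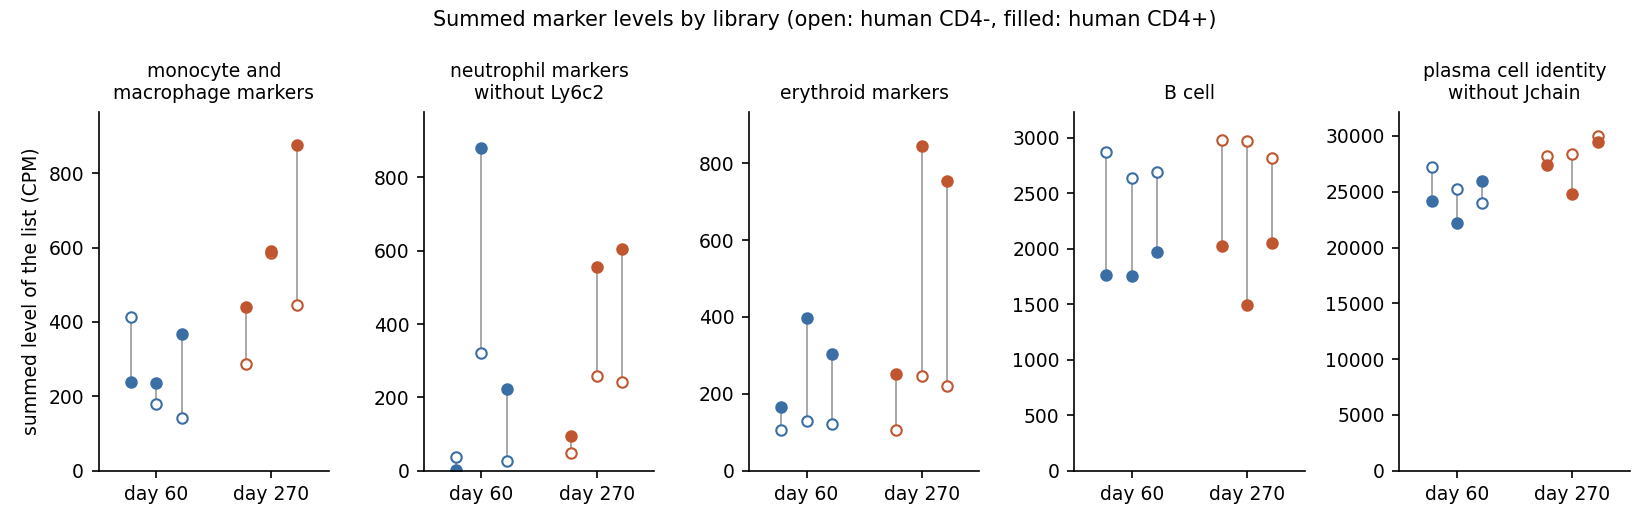
Summed CPM of 5 marker lists in each library at day 60 and day 270, open points for human CD4- and filled points for human CD4+, with a line between the 2 libraries of a specimen; each panel has its own axis from 0. Macrophage and erythroid sums reach their highest values, 875 and 845, in CD4+ libraries of day 270. Neutrophil and erythroid sums overlap between days in both populations, and macrophage sums do so in CD4- libraries. B cell sums separate the populations and not the days.

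Single genes of lipid, metal and folate metabolism rose. Scd1 (ENSMUSG00000037071, chr19:44394455-44407879) encodes stearoyl-CoA desaturase, which makes monounsaturated fatty acids. It was at 35.4, 18.01 and 16.1 CPM in the day 60 specimens and 69.7, 59.9 and 73.1 in the day 270 specimens (log2 difference 1.61 ± 0.24, adjusted p 0.00554), and specimen 1 was the highest of day 60. Its neighbour Scd2 (ENSMUSG00000025203, chr19:44293674-44306864) was at 173, 145 and 179 CPM in the day 60 specimens and 245, 309.8 and 324 in the day 270 specimens (log2 difference 0.82 ± 0.14, adjusted p 0.0163). Over both days the log2 difference of CD4+ from CD4- cells was -1.001 for Scd1 and -0.52 for Scd2, and only the former was called (adjusted p 0.00999 and 0.0617). They were the 2 called of 27 genes of cholesterol and fatty acid synthesis (against 0.276% of all genes called higher). Of the 27, 18 were positive, against 59.0% of all genes, with a median of 0.10 (-0.01 with TMM scaling). The squalene epoxidase gene Sqle had 7.92 ± 1.52 and 13.1 ± 1.04 CPM (adjusted p 0.599), without overlap of specimens.

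The metallothionein genes Mt1 (ENSMUSG00000031765, chr8:94179082-94180327) and Mt2 (ENSMUSG00000031762, chr8:94172664-94173568) lie side by side and encode small proteins that bind zinc and copper. Mt2 was at 260.0, 258 and 240.1 CPM in the day 60 specimens and 434, 518 and 426 in the day 270 specimens (log2 difference 0.86 ± 0.13, adjusted p 0.00554), and Mt1 at 452, 436 and 309.8 CPM in the day 60 specimens and 650.3, 747 and 660.1 in the day 270 specimens (log2 difference 0.80 ± 0.15, adjusted p 0.0208). With TMM scaling Mt2 remained called and Mt1 was not (adjusted p 0.0319 and 0.117). The genes were higher in CD4+ than in CD4- cells over both days, by 0.90 and 0.77 on the log2 scale for Mt2 and Mt1 (adjusted p 0.0151 and 0.0282). Both were named after their values were seen. Ggh, the gamma-glutamyl hydrolase that removes glutamates from folates, was at 315, 158 and 205 CPM in the day 60 specimens and 382, 788 and 747 in the day 270 specimens (log2 difference 1.48 ± 0.24, adjusted p 0.00681), and it was not called by DESeq2 or edgeR (adjusted p 0.125 and 0.0579). Cyp2b10 (ENSMUSG00000030483, chr7:25897620-25926624), a cytochrome P450 best known as a drug-inducible gene of the liver, had the largest rise. It was at 0.292, 1.57 and 0.505 CPM in the day 60 specimens and 4.86, 18.01 and 9.26 in the day 270 specimens (log2 difference 3.07 ± 0.54, adjusted p 0.0188). Every day 60 library had at most 2.02 CPM and every day 270 library at least 3.87, with the highest, 38.5, in CD4+ library 2 of day 270. It was the 1 called gene of 17 tested in xenobiotic metabolism, whose median was 0.18 (0.07 with TMM scaling).

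Of 26 tested lysosomal genes 2 were called higher, Tpp1 among them, and the other 24 did not pass. Positive values were found in 25, against 59.0% of all genes, and 13 had non-overlapping specimens, against 9.79% of all genes in this direction. The list's median was 0.23 against 0.07 over all genes (0.12 against -0.04 with TMM scaling). The tripeptidyl peptidase gene Tpp1 was at 84.2, 78.3 and 80.97 CPM in the day 60 specimens and 128, 149 and 121 in the day 270 specimens (log2 difference 0.70 ± 0.14, adjusted p 0.0348). Each day 270 specimen was above each day 60 specimen. Tpp1 was called by DESeq2 (adjusted p 0.00218) and not with TMM scaling (adjusted p 0.128). Of the members that limma did not call, the protease gene Ctsl had 58.5 ± 3.73 and 98.02 ± 24.3 CPM (adjusted p 0.117, and 0.0212 by DESeq2), the hexosaminidase gene Hexa 93.5 ± 8.33 and 135 ± 13.5 (adjusted p 0.172, and 0.0322 by DESeq2) and the membrane glycoprotein gene Lamp1 445 ± 22.4 and 565 ± 36.2 (adjusted p 0.432). Macrophages are rich in lysosomes, and the median of their markers was 1.14; the part of such cells in these values was not tested.

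Among genes of cell survival and death, an anti-apoptotic gene rose and a death receptor gene fell. Bcl2l1 (ENSMUSG00000007659, chr2:152780668-152831728), which encodes Bcl-xL, an anti-apoptotic relative of Mcl1, was at 8.09, 6.13 and 6.39 CPM in the day 60 specimens and 16.04, 22.6 and 23.9 in the day 270 specimens (log2 difference 1.52 ± 0.31, adjusted p 0.0348). The lowest day 270 library had 13.2 CPM and the highest day 60 library 8.60. It was called by DESeq2 and edgeR and not with TMM scaling (adjusted p 8.70e-05, 0.0375 and 0.0863). It was the 1 called of 15 tested Bcl2 family genes (against 0.276% of all genes called higher). Of the 15, 12 were positive, against 59.0% of all genes, with a median of 0.17 (0.06 with TMM scaling). Pmaip1, the gene of Noxa, which binds Mcl1, was at 26.6, 22.1 and 19.2 CPM in the day 60 specimens and 35.4, 41.7 and 36.6 in the day 270 specimens, without overlap, and did not pass (adjusted p 0.194). Bcl2 had 58.98 ± 5.12 and 65.7 ± 7.89 CPM. Fas (ENSMUSG00000024778, chr19:34290666-34327772), the receptor for Fas ligand, was at 16.6, 17.8 and 16.8 CPM in the day 60 specimens and 5.29, 3.19 and 5.86 in the day 270 specimens and fell by 1.77 on the log2 scale (SE 0.35, adjusted p 0.0294). Fas differed between the days mainly in the CD4+ libraries, with 13.1, 13.7 and 8.402 CPM at day 60 and 1.44, 0 and 1.51 at day 270, while the CD4- libraries had 20.9, 23.2 and 33.03 and 16.8, 26.8 and 19.6. In CD4+ library 2 of day 270 Fas had 0 reads. DESeq2 and edgeR on summed reads, in which the larger CD4- counts weigh more, did not call it (adjusted p 0.238 and 0.397).

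The largest fall was that of Hspa1b (ENSMUSG00000090877, chr17:34956436-34959238), which encodes an inducible Hsp70 chaperone. It was at 4.17, 9.58 and 7.54 CPM in the day 60 specimens and 0.756, 0.436 and 0.739 in the day 270 specimens (log2 difference -2.67 ± 0.48, adjusted p 0.0208). The library values were 6.06, 8.76 and 10.5 CPM in CD4- and 2.83, 10.5 and 5.36 in CD4+ cells of day 60, and 2.02, 1.25 and 0.223 and 0.125, 0 and 1.62 at day 270, so every day 270 library was below every day 60 library, as in 7 of all genes tested (0.0551%). Its neighbour Hspa1a (ENSMUSG00000091971, chr17:34969190-34972156) encodes a nearly identical protein, and counting could divide reads between the copies. Hspa1a was at 0.663, 1.12 and 1.28 CPM in the day 60 specimens and 0.256, 0 and 0 in the day 270 specimens and did not pass (adjusted p 0.474). The likeness of the copies extends to their upstream sequence. The 250 bases before the RefSeq start (GRCm38.p6) agree at 247 positions, and each holds 1 match to GAANNTTC, the head-to-head pair of units found in heat shock elements (searched on both strands, on which it reads alike). The match starts 104 bases before the start of either gene and stands in capitals here. Of 32851 windows of 250 bases before RefSeq starts, 2199 (6.69%) hold that motif. A match describes letters and does not show a bound factor.
Hspa1b, chr17:34959239-34959488, minus strand: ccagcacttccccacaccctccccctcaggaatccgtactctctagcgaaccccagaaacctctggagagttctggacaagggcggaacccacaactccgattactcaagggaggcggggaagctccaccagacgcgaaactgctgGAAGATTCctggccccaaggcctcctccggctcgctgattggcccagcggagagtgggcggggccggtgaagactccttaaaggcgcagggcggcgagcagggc
Hspa1a, chr17:34972157-34972406, minus strand: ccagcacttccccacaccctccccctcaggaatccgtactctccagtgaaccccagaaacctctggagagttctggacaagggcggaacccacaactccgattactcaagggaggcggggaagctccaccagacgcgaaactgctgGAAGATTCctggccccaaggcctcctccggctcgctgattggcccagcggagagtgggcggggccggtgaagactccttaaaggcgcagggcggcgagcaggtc

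Hspa1b was the 1 called of 23 tested heat shock and chaperone genes (against 0.0157% of all genes called lower). Of the 23, 16 were positive, against 59.0% of all genes, with a median of 0.12 (0.01 with TMM scaling). The co-chaperone gene Dnaja4 was at 1.69, 2.17 and 4.71 CPM in the day 60 specimens and 7.52, 4.78 and 8.67 in the day 270 specimens (adjusted p 0.474). The gene of the heat shock transcription factor, Hsf1, had 18.3 ± 2.07 and 25.02 ± 1.58 CPM (adjusted p 0.668). Of 21 immediate early genes, which respond within minutes to stress and handling, 16 were positive and 0 were called, with a median of 0.25 (0.14 with TMM scaling).

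Several of the largest rises were of genes with few reads at day 60. Sema3f (ENSMUSG00000034684, chr9:107681500-107710475), a secreted guidance factor, was at 1.09, 0.899 and 2.06 CPM in the day 60 specimens and 8.55, 13.3 and 17.2 in the day 270 specimens (log2 difference 2.87 ± 0.45, adjusted p 0.00639). Yap1, the transcriptional co-activator restrained by the Hippo pathway, was at 0.331, 0.422 and 0.707 CPM in the day 60 specimens and 2.88, 7.83 and 7.55 in the day 270 specimens (log2 difference 2.65 ± 0.51, adjusted p 0.0292), and the small GTPase gene Rap2a at 1.13, 0.705 and 0.688 CPM in the day 60 specimens and 4.53, 10.1 and 9.30 in the day 270 specimens (log2 difference 2.60 ± 0.48, adjusted p 0.0208). Each of the 2 had 0 reads in 2 libraries of day 60. The libraries of the days did not overlap for Rap2a, whereas CD4- library 1 of day 270 lay inside the day 60 range for Yap1. The G protein subunit gene Gna14 rose from 2.26 ± 0.815 to 11.9 ± 4.26 CPM, Crim1, a transmembrane protein that binds bone morphogenetic proteins, from 5.56 ± 1.67 to 22.2 ± 9.55, and the neuronal adhesion gene Negr1 from 7.59 ± 2.38 to 24.7 ± 4.45. Vpreb3, a gene of the B cell lineage, rose from 9.31 ± 3.88 to 32.1 ± 12.3 CPM. It was the 1 called of 6 tested pro-B and pre-B markers, of which 5 were positive and 2 had an unadjusted p under 0.05, with a median of 0.21 (0.09 with TMM scaling). The 10 such markers in the table, Vpreb3 and Cd93 among them, summed to 168 to 191 CPM in CD4- libraries of day 60. The sums were 121 to 221 in CD4+ libraries of day 60, and 218 to 252 and 216 to 314 at day 270. They did not overlap in CD4- libraries, where Cd93 and Vpreb3 made up most of each sum. There Cd93 had 135 to 158 CPM at day 60 and 140 to 167 at day 270, and Vpreb3 4.61 to 21.9 and 29.7 to 48.0. The part of pro-B and pre-B cells in the rise of Vpreb3 was not tested. Spag6l (under the gene identifier of Spag6 in GENCODE M21) rose from 15.6 ± 4.34 to 38.5 ± 3.28 CPM. Of these 8 genes, Sema3f alone was called with TMM scaling (adjusted p 0.0229). Lamb1, a laminin chain, had 0 reads in all 6 day 60 libraries and 142 in the 6 of day 270, at least 48.9-fold higher (a floor of 3 reads over the group), but was not called (adjusted p 0.0736).

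The remaining called genes, named after their values were seen, rose by 0.67 to 1.28 on the log2 scale. They were the cotransporter gene Slc12a2, the transcriptional regulators Cited2 and Lmo2, the chloride channel family gene Clic5, Sh3bgrl2, the kinase gene Mapk12 and the glycosyltransferase gene B3galnt1. With TMM scaling limma called none of them (adjusted p 0.0562 for Lmo2 to 0.153 for Cited2), and Slc12a2 was called in 9 of 28 other settings. Slc12a2 was at 263, 257 and 324 CPM in the day 60 specimens and 453, 504 and 391 in the day 270 specimens (adjusted p 0.0366) and Cited2 at 253, 182 and 189 CPM in the day 60 specimens and 357, 315 and 317 in the day 270 specimens (adjusted p 0.0428). Lmo2 was at 20.5, 19.9 and 20.6 CPM in the day 60 specimens and 36.5, 48.8 and 50.7 in the day 270 specimens (adjusted p 0.0208), with the day 60 specimens within 1 CPM of each other. The last of the 37, a gene model with a provisional name, is counted and not named.

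Only 2 genes fell, so genes with the smallest p in that direction are given with their values. limma called none of them. DESeq2 on summed reads called Btla, Prg2, St3gal6, Ints2 and Acrbp lower (adjusted p 2.08e-04, 0.00109, 0.0171, 0.00189 and 0.00654), and edgeR called none. Fcer1g, the Fc receptor gamma chain, was at 93.2, 66.1 and 80.2 CPM in the day 60 specimens and 57.8, 27.5 and 41.4 in the day 270 specimens (adjusted p 0.0823, and 0.0244 with the library-number set as a covariate), with CD4+ library 1 of day 270 at 111 CPM and inside the day 60 range. Btla, an inhibitory receptor of lymphocytes, was at 212, 230.0 and 211 CPM in the day 60 specimens and 185, 95.03 and 146 in the day 270 specimens (adjusted p 0.171). Prg2, a granule protein of eosinophils that plasma cells also express, had 1645 ± 309 and 1069 ± 248 CPM (adjusted p 0.186). St3gal6, a sialyltransferase, had 39.05 ± 8.03 and 20.8 ± 7.13 CPM, Ints2, a subunit of the Integrator complex, 23.8 ± 3.15 and 11.8 ± 2.66, and Creg2 10.5 ± 2.95 and 2.87 ± 1.69 (adjusted p 0.167, 0.171 and 0.130). Fcrl5, an Fc receptor-like gene, had 7.14 ± 4.44 and 1.52 ± 0.195 CPM (adjusted p 0.171), with 0 reads in the 3 CD4+ libraries of day 270. Acrbp, at 1.46 ± 0.657 CPM at day 60, had reads in 1 of 6 libraries at day 270 (adjusted p 0.186).

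The same contrast was read within each population from a fit of all 12 libraries. limma called 0 genes in CD4- cells (378 at an unadjusted p under 0.05, 2.98%; DESeq2 called 11 and edgeR 0) and 4 in CD4+ cells (0.0315%; 1225 before adjustment, 9.64%). The 4 were Hepacam2, Slamf9 and Scd1, higher, and Fas, lower, all among the 37. With only the 6 CD4+ libraries fitted 0 were called. DESeq2 called 128 in CD4+ cells (71 higher, 57 lower) and edgeR 2 (0 higher, 2 lower). The count was 151 (38 higher, 113 lower) without CD4+ library 1 of day 270. It was 1, lower, without CD4+ library 3 of day 270, and 0 without CD4+ library 2 or without CD4+ library 3 of day 60. The test of the difference between the populations called 0 genes (smallest adjusted p 0.99989; 357 or 2.81% before adjustment; DESeq2 called 2 and edgeR 0). Fas had log2 differences of -0.28 ± 0.52 in CD4- and -3.26 ± 0.52 in CD4+ cells, and the difference of the differences, -2.98 ± 0.79, was not called (unadjusted p 0.00195). Spag6l, with 1.95 in CD4- and 0.66 in CD4+ cells, was the other of the 37 with an unadjusted p under 0.05 (0.0156). Across all 12704 genes the sign was the same in the populations for 57.4%, and the log2 differences had a Pearson correlation of 0.205 across genes, which share specimens and are not independent.

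**Figure D4:**
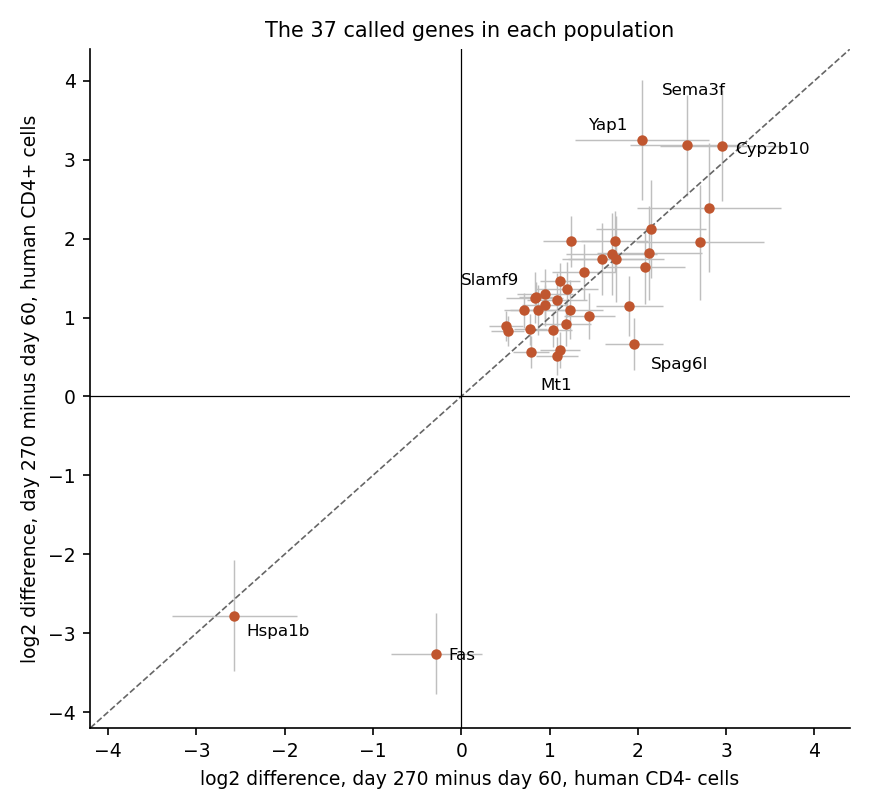
Log2 difference between day 270 and day 60 of the 37 called genes in human CD4- cells (horizontal axis) and human CD4+ cells (vertical axis), with standard errors from the 12-library fit and a dashed line of equality. All points lie in the quadrants of equal sign; Fas is near 0 in CD4- cells and at -3.26 in CD4+ cells.

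The day contrast was set beside the contrast of CD4+ with CD4- cells over both days, which uses the differences within specimens and not their means. That contrast called 31 genes higher (0.244%) and 155 lower (1.22%) in CD4+ cells, and 29.6% of all genes had a positive value. Of the 35 rises with day, 29 had a positive value and 7 were called higher in CD4+ cells, namely Slc12a2 (1.26), Spag6l (1.18), Mapk12 (1.16), Clic5 (1.05), Mt2 (0.90), Slamf9 (0.78) and Mt1 (0.77). Scd1 was called lower there. Of the falls, Fas was called lower in CD4+ cells (-2.59). This contrast was added after the data were seen.

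Across all tested genes the day differences were small. In 80.3% the log2 difference was under 0.5 in size, 364 genes were at 1 or above and 210 at -1 or below, and among the 7694 with a mean of at least 10 CPM these numbers were 60 and 16. In 59.0% of genes it was positive. Of 36 gene lists, which held 1 to 42 tested genes each, 12 had a called member. limma called 0.291% of all genes, and no expected number of such lists was computed. Some lists share their called genes. Ly6c2 counts for the plasma cell, Ly6 and neutrophil lists, and Epcam for the plasma cell and adhesion lists. Ccr9 counts for the adhesion and dendritic cell lists, and Vcam1 for the adhesion and macrophage lists. limma called no gene of the secretory machinery: of 33 tested genes of the unfolded protein response and ER folding 24 were positive, with a median of 0.09, near the median of all genes, and Sel1l, a part of the ER degradation machinery, had 1891 ± 271 and 2584 ± 161 CPM (adjusted p 0.364, and 0.0448 by DESeq2). Cell cycle genes had a median of 0.16 with 28 of 42 positive, and interferon response genes 0.17 with 25 of 32. Of 38 nuclear genes of oxidative phosphorylation 12 were positive (median -0.05), and of 11 MHC class II genes 3 (median -0.16). H2-Ab1, a chain of the class II molecule, had 610.2 ± 49.4 and 521 ± 82.01 CPM, and the B cell receptor chain gene Cd79a 582 ± 10.3 and 556 ± 66.1 (adjusted p 0.714 and 0.934). DESeq2 called H2-Ab1 lower (adjusted p 0.00280). With TMM scaling the medians of the ER, cell cycle, interferon, oxidative phosphorylation and class II lists were -0.02, 0.05, 0.06, -0.17 and -0.27, against -0.04 over all genes. Among 15 genes of matrix enzymes and hypoxia 13 were positive and 0 were called, with a median of 0.13 (0.01 with TMM scaling). Specimens did not overlap in 4 of the 15 higher and in 1 lower at day 270, against 9.79% and 3.42% of all genes. The list's prolyl hydroxylase genes P4ha2 and P4ha1, which act on collagen, did not overlap between the days. P4ha2 was at 1.48, 2.02 and 1.76 CPM in the day 60 specimens and 5.87, 12.5 and 8.15 in the day 270 specimens (adjusted p 0.0736), and DESeq2 and edgeR called it (adjusted p 2.14e-07 and 0.0203). P4ha1 was at 33.9, 35.7 and 44.05 CPM in the day 60 specimens and 57.2, 57.9 and 68.3 in the day 270 specimens (adjusted p 0.146, and 0.0189 by DESeq2). Vegfa, a growth factor for vessels, had 6.93 ± 2.46 and 16.6 ± 2.61 CPM (adjusted p 0.171).

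**Figure D5:**
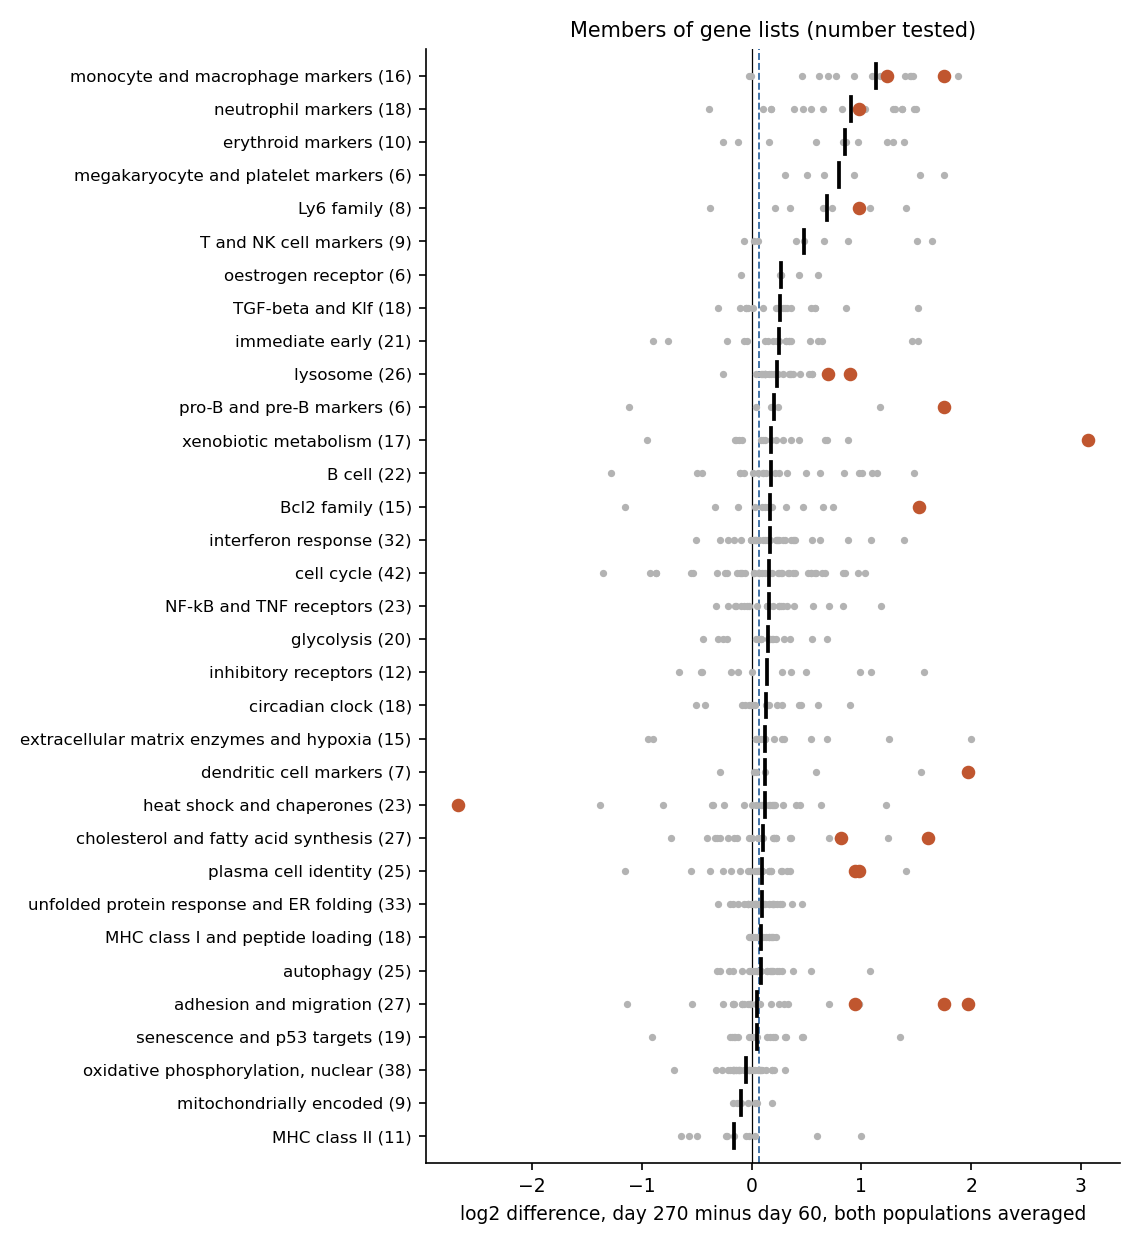
Log2 difference between day 270 and day 60 (horizontal axis) of the tested members of 33 gene lists with at least 5 of them, 1 point a gene, large points for called genes, a black bar at the list's median and a dashed line at the median of all genes; the number tested stands in brackets. Macrophage, neutrophil and erythroid markers have the highest medians, 1.14, 0.90 and 0.85, and the farthest points of called genes are Cyp2b10 at 3.07 and Hspa1b at -2.67.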

How the data were processed

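Human CD4+ and CD4- plasma cells were sequenced after RNA extraction with RNeasy Micro kits and TruSeq library preparation, per the labels' protocols. The build GRCm38 and the tool limma are named in the submitters' processing notes; an aligner, counter or strand setting is stated in none of the sources. The authors deposited a table of CPM for 14219 genes in 12 libraries, per the file headers, and a table of read counts for 230 of those genes. Whole reads were recovered from the CPM: of 151342 values below 1000 reads, 100% were whole numbers within 0.05, and 100% of the deposited counts were matched. A further deposited table of selected genes was not used here. There were 0 other columns of per-sample values. The table holds 9 features resembling ribosomal RNA, which stayed in the totals.

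edgeR's filterByExpr on the recovered reads (minimum count 10) kept 12704 genes and removed 1515. log2(CPM + 0.5) was averaged over the 2 libraries of a specimen, and limma (lmFit, eBayes with trend) compared 3 specimens with 3 on 4 residual degrees of freedom, two-sided, with Benjamini-Hochberg adjustment over all 12704 genes. A fold on this scale understates the change of genes with few reads. Errors of levels are SD over 3 specimens and errors of log2 differences are SE. Day differences within a population came from a fit of 12 libraries with 4 groups, and their difference from the specimen differences. The prior's trend ran over mean expression in all fits, a choice made after a first fit of the differences had been seen. Nothing in the labels says that specimens were housed or processed apart, so p-values speak for these animals alone. The spread in them is not that of a gene's own specimens only. It is drawn in part from other genes of like expression, with a median of 14.8 prior degrees of freedom beside the 4 residual ones. A comparison of 3 against 3 cannot go below p = 0.1 in an exact permutation test, so no such test is given. The limma script was tested on simulated data first.

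Same-numbered specimens of the days are different animals. Their deviations had correlations of 0.0913, 0.0279 and -0.0392, so the numbers were not taken to pair them. Genes were named by rule: among called genes with specimens that did not overlap and at least 1 CPM on the higher day, the 15 largest rises and falls, filled to 10 falls by smallest p, each called list member, and a fixed set of 18 genes. Others are said to be named after their values were seen. Some genes are counted but not reported here by name. The genes, lists and tests were chosen with earlier results of these data known. Alternatives covered scaling (TMM, totals without abundant classes), filter, pseudocount, variance prior, specimens and libraries left out, library-number set, and edgeR, DESeq2 and voom on recovered reads. Versions were R 4.3.3, limma 3.58.1, edgeR 4.0.16, DESeq2 1.42.0, Python 3.11.15, pandas 2.3.3 and numpy 2.4.6. Gene positions are from GENCODE M21 (GRCm38), in which 14165 of 14219 identifiers were found, and sequences from RefSeq (GRCm38.p6).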

Additional observations from a re-analysis of the deposited data

How the results depend on the processing

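All 37 calls of the averaged comparison kept their direction in each of 28 alternatives. That was largely fixed in advance, because each alternative reuses these specimens and several leave the log2 difference unchanged. The number of calls moved. It was 14 with TMM scaling, which lowered the median of all genes by 0.107, 12 with totals without ribosomal RNA-like, mitochondrial and Jchain reads, 11 with a pseudocount of 0.1, 0 with a prior without trend and 89 with library quality weights. Fits of 12 libraries gave 24 without a specimen term, 24 with the specimen as a random block, 17 with edgeR and 15 with voom. Summed reads gave 148 with DESeq2 and 26 with edgeR. Without CD4+ library 2 of day 270 it was 58, without CD4+ library 2 of day 60 it was 3, and without CD4+ libraries 2 and 3 of day 270, an alternative added after the data were seen, 5. Leaving out 1 specimen gave 0 to 53 (37 without specimen 1 of day 270). The cause of these shifts was not tested. The replicate number as a block, which joins different animals, gave 107 calls in the averaged comparison and 1 in the test between populations, and not every specimen correlated best with its own number. In CD4- cells 11 were called with DESeq2, 3 without trend and 0 to 8 with a library left out, against 0. In CD4+ cells 128 were called with DESeq2, 2 with edgeR, 0 with only the 6 libraries of that population and 0 to 151 with a library left out, against 4. DESeq2 called 2 genes in the test between populations, and leaving out a specimen gave 0 there each time. Of 780 values of named genes under alternatives, 539 kept their side of the threshold, 239 fell below it and 2 rose above it. The 780 include named genes that the main fit did not call, and only the 37 called genes could fall below the threshold. Of those 37, single alternatives kept from 0 (without specimen 2 of day 60) to 37 (pseudocount of 2). Depth limits genes of few reads, such as Yap1 and Hspa1a.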

Other observations

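Several other gene lists had 0 members called by limma between day 270 and day 60. Of 19 tested genes of senescence and p53 targets 11 were positive, with a median log2 difference of 0.05 (-0.07 with TMM scaling), and the cell cycle inhibitor genes Cdkn1a and Cdkn2a had 10.02 ± 1.35 and 5.15 ± 1.61 CPM (SD, n = 3) at day 60 and 12.54 ± 2.003 and 5.09 ± 1.79 at day 270. Of 6 tested genes of oestrogen receptor signalling, the pathway on which tamoxifen acts, 5 were positive with a median of 0.27 (0.16 with TMM scaling). The receptor gene Esr1 itself had 16.6 ± 3.02 and 19.9 ± 1.36 CPM (limma adjusted p 0.853). Of 18 genes of TGF-beta signalling and the Klf family 13 were positive with a median of 0.26 (0.15 with TMM scaling). The receptor gene Tgfbr2 had 88.8 ± 13.9 and 129 ± 8.65 CPM and Tgfbr1 65.1 ± 5.95 and 52.4 ± 3.54, both without overlap of specimens and neither called (limma adjusted p 0.171 and 0.668). Of 25 autophagy genes 18 were positive (median 0.08, -0.03 with TMM scaling), of 20 glycolysis genes 16 (median 0.15, 0.04 with TMM scaling), and of 18 clock genes 12 (median 0.14, 0.02 with TMM scaling).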
